A study of Mus musculus with 8 samples.

Results

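The genes described here encode proteins that neutrophils pack into their granules. They were taken by symbol from 3 deposited tables of FPKM (fragments per kilobase of the gene model, with library depth divided out). The 10 members comprised 4 genes of the primary granules (Mpo, Elane, Prtn3 and Ctsg) and 6 genes of later stages (Ltf, Ngp, Camp, Lcn2, Chil3 and Lyz2), of 15142 genes listed in all 3 tables. All 10 were among the 11351 genes tested, which reached 1 FPKM in at least 2 libraries.

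RNA-seq was performed on hematopoietic stem cells (HSCs) of wild-type (WT) C57BL/6 mice, in 8 libraries of 3 groups. Control mice were labelled PBS and gave bone marrow HSCs (control BM HSCs, 3 libraries). The other mice received phenylhydrazine (PHZ), a compound that destroys red blood cells, at 60 mg/kg by intraperitoneal injection on 2 days. At 3 days after the second injection their HSCs were sorted from marrow (PHZ BM HSCs, 3 libraries) and spleen (PHZ SP HSCs, 2 libraries). Spleen HSCs of control mice were not analysed here, so in PHZ SP against control BM the tissue and the treatment cannot be told apart. The study's gate for HSCs was lineage-negative, Sca-1+, c-kit+, CD150+ and CD48-/low, and its lineage antibodies included Gr-1, which binds neutrophils. The labels do not say how many animals gave a library, so p-values measure the spread between these samples, which may be technical.

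Granule proteins are made in waves as a neutrophil matures in bone marrow. Promyelocytes make the serine proteases and myeloperoxidase of the primary (azurophilic) granules, and myelocytes and later stages make the iron-binding and antimicrobial proteins of the specific and gelatinase granules. HSCs lie far upstream of both stages, and low levels of primary granule messages are known as a feature of early myeloid priming in stem and progenitor cells.

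The libraries held 8222362 to 13212933 reads assigned to genes, of which the ribosomal RNA precursor Rn45s took 43.3% to 48.5%. Genes that mark HSCs were expressed in every library, and none of the 12 on the HSC list passed the test in any comparison. Of all genes tested, 0.758% to 2.74% passed it. In PHZ SP against control BM, 7 of the 12 had higher and 5 lower values. There 6 of the 12 had an unadjusted p under 0.05, against 15.8% of all genes tested. In control BM, PHZ BM and PHZ SP HSCs, the mean level of the surface marker Procr was 40.2, 65.7 and 80.7 FPKM, that of the receptor Kit 135, 124 and 93.8 FPKM and that of Slamf1, which encodes CD150, 5.75, 3.19 and 6.49 FPKM. Tests were made with limma on log2(FPKM + 1) over all 11351 genes. A difference on this scale understates the change of a gene near or below 1 FPKM, and a gene was called at an adjusted p under 0.05.

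Within each group the members spanned a wide range of levels per gene length. Lyz2, which encodes lysozyme, was the most abundant member in all 3 groups, at a mean of 263 FPKM in control BM, 219 in PHZ BM and 300.0 in PHZ SP HSCs. Prtn3, which encodes proteinase 3, ranked second in both marrow groups, at 94.8 FPKM in control and 185 in PHZ BM HSCs. Ngp, which encodes neutrophilic granule protein, came next there, at 51.5 and 37.8 FPKM. These ranks are of group means and did not hold in every library. Ngp exceeded Prtn3 in control replicate 1 (94.5 and 81.8 FPKM), and Prtn3 exceeded Lyz2 in PHZ BM replicate 3 (214 and 182 FPKM). In PHZ SP HSCs, Ngp had a mean of 125 FPKM and Prtn3 122, and their ranges overlapped. Camp came after both Prtn3 and Ngp in every group, at 35.8, 16.5 and 65.7 FPKM in control BM, PHZ BM and PHZ SP HSCs. In control BM HSCs the means of Chil3, Lcn2, Ltf and Elane lay between 4.16 and 11.2 FPKM, and each overlapped the next in its range over libraries. Mpo and Ctsg came last there, at 0.548 and 0 FPKM. Prtn3 made up most of the summed FPKM of the primary granule set in every library. The other 3 members summed to 40.3 of 209 FPKM in PHZ BM replicate 2, and in the other 7 libraries to between 0.388 and 12.01 FPKM.

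**Figure D1:**
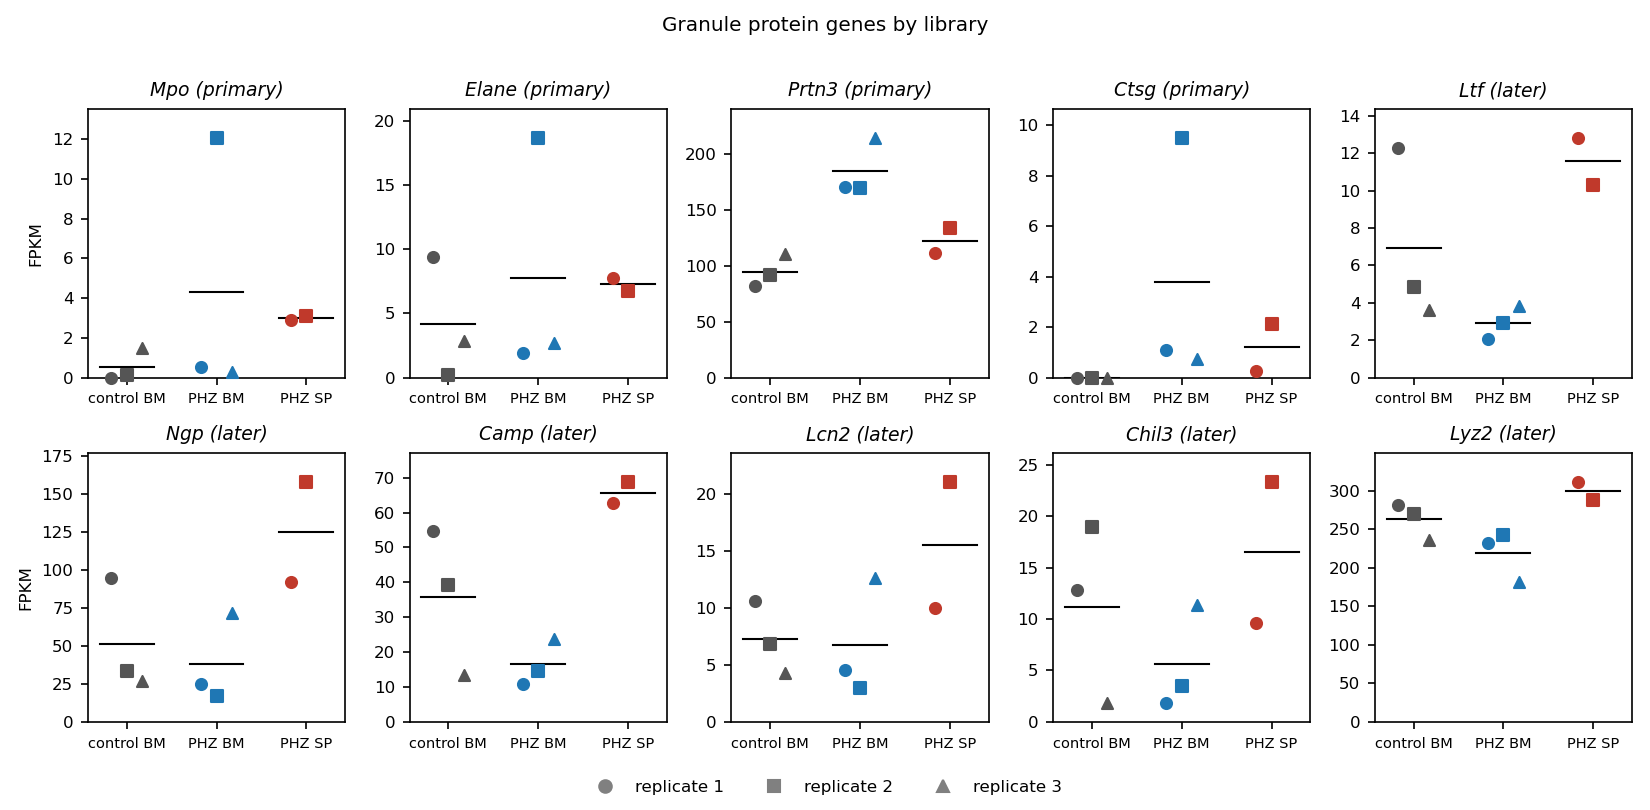
Level in FPKM (vertical axes, linear, from 0) of each granule protein gene in the 8 libraries, by group; symbols give the replicate number and bars the group mean. The 3 PHZ BM libraries sit above all others for Prtn3, 1 PHZ BM library stands high for Mpo, Elane and Ctsg, and both PHZ SP libraries sit above all PHZ BM libraries for Ltf, Ngp, Camp and Lyz2.

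Prtn3 was higher in bone marrow HSCs of PHZ-treated mice than in control HSCs. It encodes a serine protease of the primary granules and in RefSeq lies on chromosome 10 from 79879667 to 79883174 (GRCm38), a short distance upstream of Elane at 79886312 to 79888216. Its level was 81.8, 92.2 and 110 FPKM in the control libraries, 171, 169 and 214 FPKM in the PHZ BM libraries, and 111 and 133 FPKM in the PHZ SP libraries. The lowest PHZ BM library exceeded the highest of the other 5. The mean rose 1.95 times, from 94.8 ± 14.4 FPKM (SD, n = 3) in control to 185 ± 25.7 FPKM (SD, n = 3) in PHZ BM HSCs. On the log2 scale the difference was 0.96 ± 0.15 (SE), with an adjusted p of 0.00751 by limma. Of all genes tested, 311 (2.74%) were called in this comparison, and Prtn3 was the 1 member among them. The call remained when each of the 8 libraries was left out in turn. It was lost, at an adjusted p of 0.0578, when the trend and robust options of the variance estimate were turned off.

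In PHZ SP HSCs Prtn3 averaged 122 ± 15.5 FPKM (SD, n = 2), between the marrow groups. Both spleen libraries lay above all control libraries and below all PHZ BM libraries. The difference from control was 0.37 ± 0.17 (log2, SE; adjusted p = 0.324) and that from PHZ BM HSCs was -0.59 ± 0.17 (adjusted p = 0.155), so neither was called by limma. The former was 0.50 without PHZ SP replicate 1 and 0.24 without PHZ SP replicate 2. The gene model behind its FPKM was 1732 bases long, which is the summed exon length of Prtn3 in GENCODE M21. In that model the gene starts at 79874476, upstream of the RefSeq start. That model shares 159 exonic bases with Plppr3 on the opposite strand, and the library kit does not mark strand, so reads in the overlap cannot be assigned to either gene. Plppr3 averaged 17.6, 23.5 and 14.5 FPKM in control BM, PHZ BM and PHZ SP HSCs, and its difference between the marrow groups was 0.42 (log2; adjusted p = 0.437 by limma).

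The other 3 primary granule genes were lower and varied widely between libraries of a group. Mpo encodes myeloperoxidase, which makes hypochlorous acid, Elane encodes neutrophil elastase and Ctsg encodes cathepsin G. Their read counts bear on how far each value can be read, and a limit set in reads accounts for counting error alone, because the protocol used no molecular identifiers.

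Mpo had 0, 5 and 65 reads in the control libraries (0, 0.162 and 1.48 FPKM), 20, 387 and 13 reads in the PHZ BM libraries (0.559, 12.1 and 0.295 FPKM), and 110 reads in each PHZ SP library (2.88 and 3.10 FPKM). PHZ BM replicate 2 stood at 28.3 times the mean of the other 2 PHZ BM libraries. Both spleen libraries lay above all control libraries, and the PHZ BM range enclosed the levels of all others except 2 control libraries. The difference of PHZ SP from control HSCs was 1.49 ± 0.81 (log2, SE), with an adjusted p of 0.399 by limma. That of PHZ BM from control was 1.06 ± 0.72 (adjusted p = 0.501) and became -0.003 without PHZ BM replicate 2. Of the 50-base windows of the Mpo transcripts, 9.46% also occur in transcripts of other genes, so its lowest counts are uncertain.

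Elane had 90, 2 and 36 reads in the control libraries (9.39, 0.226 and 2.86 FPKM), 20, 172 and 34 reads in PHZ BM (1.95, 18.7 and 2.68 FPKM), and 85 and 69 reads in PHZ SP (7.75 and 6.76 FPKM). All 3 groups overlapped, and control libraries alone spanned 0.226 to 9.39 FPKM. PHZ BM replicate 2 was again the highest, at 8.07 times the mean of the other 2. The difference between marrow groups was 0.71 ± 0.77 (log2, SE; limma adjusted p = 0.695) and -0.15 without that library. Control libraries moved it as well, to 1.46 without replicate 1 and -0.0831 without replicate 2.

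Ctsg had 0 reads in all 3 control libraries, 12, 92 and 10 reads in PHZ BM (1.11, 9.51 and 0.751 FPKM), and 3 and 23 reads in PHZ SP (0.261 and 2.15 FPKM). Every PHZ-treated library thus held reads of Ctsg where no control library did. A count of 0 allows up to 3 reads, or on average 0.282 FPKM in the control libraries. Against that limit per library, the mean of PHZ BM HSCs was at least 13.4-fold higher, or at least 3.30-fold higher without replicate 2. The mean of PHZ SP HSCs was at least 4.26-fold higher, although its replicate 1 held no more than the 3 reads of the limit. The fitted difference between marrow groups was 1.76 ± 0.60 (log2, SE), with a limma p of 0.0130 and an adjusted p of 0.155, and it was not called. Without PHZ BM replicate 2 it was 0.94. Ctsg passed the filter only with the PHZ BM libraries, since outside them it reached 1 FPKM in PHZ SP replicate 2 alone, so this p is no support for a difference.

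PHZ BM replicate 2 was the highest PHZ BM library for 3 of the 4 primary granule genes. The exception was Prtn3, of which it had the lowest level in the group, at 169 FPKM. Its summed level of the 6 later genes was 283 FPKM, within the 276 to 305 FPKM of its group, and its 24 mature neutrophil genes summed to 382 FPKM, also within the range of its group. Whether cells with primary granules contributed to that library was not tested.

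The promoters of the primary granule genes are shown because all 4 hold the letters AGGAAGT, the core of a site for ETS factors such as PU.1. This motif was chosen after the promoters had been read. The windows below come from RefSeq (GRCm38.p6), run 5′ to 3′ along the gene's own strand, and give the motif in capitals. Its first base lies at -223 in Mpo, -84 in Elane, -94 in Prtn3 and -206 in Ctsg, counted from the RefSeq start of the gene. GENCODE M21 starts Mpo, Elane and Prtn3 further upstream, at 87793581, 79886247 and 79874476, so the Prtn3 window lies inside that gene.
Mpo (chr11:87793535-87793593, plus strand): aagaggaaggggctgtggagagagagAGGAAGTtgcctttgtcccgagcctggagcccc
Elane (chr10:79886202-79886260, plus strand): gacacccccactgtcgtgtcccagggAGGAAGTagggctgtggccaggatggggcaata
Prtn3 (chr10:79879547-79879605, plus strand): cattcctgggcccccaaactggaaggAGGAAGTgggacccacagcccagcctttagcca
Ctsg (chr14:56102748-56102806, minus strand): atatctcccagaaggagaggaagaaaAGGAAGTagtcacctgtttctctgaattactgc

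On either strand of the 250 bases before the start, AGGAAGT was found in 4 of 4 primary and 2 of 6 later granule genes (Chil3 and Lyz2), and in 7.80% of 27025 promoters. TTGCNNAA, a motif of C/EBP factors, was found in 0 of 4 primary and 3 of 6 later genes (Ltf, Ngp and Lcn2), and in 9.55% of all promoters. No member held both, so no matches overlapped. These matches describe the letters in the windows, and binding was not measured.

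The later granule genes had lower mean FPKM in PHZ BM HSCs than in control HSCs and their highest mean FPKM in PHZ SP HSCs. All 6 had this order over the 8 libraries as scaled here, and limma called none of these differences. The order did not hold for 4 of them under every alternative. In PHZ BM against control BM HSCs, the difference of Ngp became 0.066 (log2) without control replicate 1, and that of Lcn2 became 0.0628 without control replicate 1, 0.148 without PHZ BM replicate 2 and 0.0417 with PHZ BM replicates 1 and 2 as 1 sample. In PHZ SP against control BM HSCs, that of Chil3 became -0.0453 without control replicate 3 and that of Lyz2 -0.00818 after quantile normalization. The 3 comparisons share libraries, so the order is 1 observation and not 3.

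Ltf encodes lactoferrin, the iron-binding protein of the specific granules. It was at 12.3, 4.86 and 3.60 FPKM in the control libraries, 2.05, 2.91 and 3.85 FPKM in PHZ BM and 12.8 and 10.3 FPKM in PHZ SP. The spleen libraries lay above all PHZ BM libraries and overlapped control replicate 1. PHZ SP exceeded PHZ BM HSCs by 1.69 ± 0.40 (log2, SE; limma adjusted p = 0.0787), a ratio of means of 3.93. The difference was called at an adjusted p of 0.0175 without control replicate 1 and of 0.0252 with only the 2 groups in the fit. Between the marrow groups it was -0.88 ± 0.36 (adjusted p = 0.244), and -0.42 without control replicate 1.

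Camp encodes the precursor of the antimicrobial peptide cathelicidin. Its level was 54.7, 39.1 and 13.5 FPKM in control, 10.99, 14.7 and 23.9 FPKM in PHZ BM and 62.6 and 68.8 FPKM in PHZ SP libraries. Both spleen libraries exceeded all 6 marrow libraries. The difference from PHZ BM HSCs was 1.996 ± 0.47 (log2, SE; limma adjusted p = 0.0787), a ratio of means of 3.98. It was called without control replicate 1 (adjusted p = 0.04701), without control replicate 3 (0.0186) and with only the 2 groups in the fit (0.0198). From control HSCs the difference was 1.06 ± 0.47 (adjusted p = 0.303), and 0.50 without control replicate 3. The difference between marrow groups was -0.93 ± 0.42 (adjusted p = 0.293). It was -0.53 without control replicate 1, and without control replicate 3 it was -1.50 and called (adjusted p = 0.0362).

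Ngp encodes a cathelicidin-related protein of the specific granules. It was at 94.5, 33.2 and 26.8 FPKM in control, 24.7, 17.0 and 71.6 FPKM in PHZ BM and 91.8 and 158 FPKM in PHZ SP libraries. The spleen libraries were above all PHZ BM libraries, and control replicate 1 lay between them. PHZ SP exceeded PHZ BM HSCs by 1.91 ± 0.58 (log2, SE; limma adjusted p = 0.174), and without PHZ BM replicate 3 by 2.496 (adjusted p = 0.04997, just under the threshold).

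Lcn2 encodes lipocalin 2, which binds bacterial siderophores, and Chil3 encodes the chitinase-like protein Ym1. Lcn2 was at 10.6, 6.81 and 4.29 FPKM in control, 4.52, 3.01 and 12.6 FPKM in PHZ BM and 10.03 and 21.1 FPKM in PHZ SP libraries. Chil3 was at 12.8, 18.9 and 1.87 FPKM in control, 1.88, 3.53 and 11.4 FPKM in PHZ BM and 9.62 and 23.3 FPKM in PHZ SP libraries. For both genes PHZ BM replicate 3 reached into the range of the spleen libraries. PHZ SP minus PHZ BM was 1.22 ± 0.50 for Lcn2 and 1.56 ± 0.77 for Chil3 (log2, SE), with limma adjusted p of 0.318 and 0.410. Without PHZ SP replicate 2 these were 0.72 and 0.96. Of the 50-base windows of the Chil3 transcripts, 26.9% also occur in its near-copies Chil4 and Gm6522, so its level is uncertain.

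Lyz2 differed little in proportion. It was at 282, 270 and 236 FPKM in control, 232, 242 and 182 FPKM in PHZ BM and 312 and 288 FPKM in PHZ SP libraries. The spleen libraries were above all 6 marrow libraries. The ratio of means was 1.37 between PHZ SP and PHZ BM HSCs, with a difference of 0.47 ± 0.15 (log2, SE; limma adjusted p = 0.194). From control HSCs it was 0.19 ± 0.15 (adjusted p = 0.567), and 0.12 without control replicate 3. Lyz2 shares 15.4% of its 50-base windows with the intestinal lysozyme gene Lyz1, which stayed at or below 0.615 FPKM in every library.

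**Figure D2:**
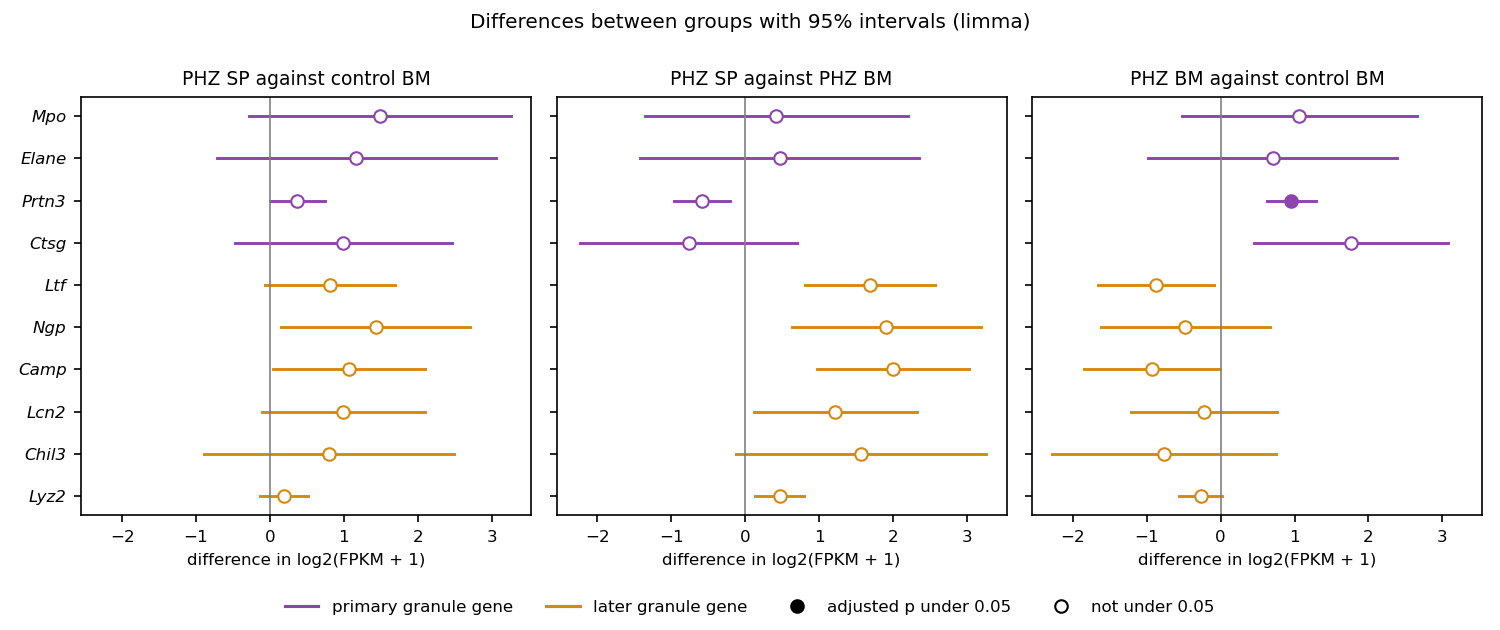
Difference in log2(FPKM + 1) between groups (horizontal axes) for each granule protein gene, with the 95% interval from limma; purple marks primary and orange later granule genes, and a filled point marks an adjusted p under 0.05. The filled point is Prtn3 in PHZ BM against control BM, and all 6 later genes lie to the right of 0 in PHZ SP against PHZ BM and to the left of it in PHZ BM against control BM.

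Counted over the members, PHZ SP against control BM HSCs gave 0 called of 10, with 2 at an unadjusted p under 0.05 by limma (Ngp and Camp). Of all genes 0.758% were called and 15.8% had an unadjusted p under 0.05. The PHZ SP mean FPKM was higher for all 10, but the log2 difference turned negative for Chil3 without control replicate 3 (-0.0453) and for Lyz2 after quantile normalization (-0.00818). For 5 of 10 (Mpo, Prtn3, Ctsg, Camp and Lyz2) both spleen libraries lay above all control libraries, which 15.2% of all genes did. In PHZ SP against PHZ BM HSCs, limma called 0 of 10, with 6 at an unadjusted p under 0.05. Of all genes 0.978% were called and 13.5% had an unadjusted p under 0.05. Both spleen libraries lay above all PHZ BM libraries for 4 of 6 later and 0 of 4 primary genes, against 17.5% of all genes, and below them for Prtn3, against 17.4%. In PHZ BM against control BM HSCs, 4 of 10 had an unadjusted p under 0.05 by limma, as did 16.6% of all genes. There 2 primary genes (Prtn3 and Ctsg) lay above all control libraries, which 12.3% of all genes did, and none of the later genes did. Ctsg is in both counts and could be tested only because it was high in PHZ BM HSCs.

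The median difference of the 4 primary genes was 1.08 in PHZ SP against control BM, -0.08 in PHZ SP against PHZ BM and 1.01 in PHZ BM against control BM (log2). With Ctsg set at its lower limit against control the first became 1.33 and the last stayed at 1.01. Ctsg passed the filter only with the PHZ BM libraries, and without it the last was 0.96 over the other 3 genes. For the 6 later genes the medians were 0.91, 1.63 and -0.62. The median over all genes tested was between -0.02 and 0.01 in each comparison. The primary and later sets thus had medians of opposite sign in PHZ BM against control BM, and this difference between sets was not tested. The primary median in PHZ SP against control BM became 2.49 with a pseudocount of 0.1 FPKM and 2.95 with voom on the reads. Single libraries moved these medians as well. In PHZ BM against control BM, the primary median was 0.47 without PHZ BM replicate 2. The later median there was -0.32 without control replicate 1 and -0.32 without PHZ BM replicate 1, and it was -1.01 without control replicate 3 and -1.05 without PHZ BM replicate 3. For PHZ SP against PHZ BM, the primary median was -0.34 without PHZ BM replicate 1, -0.33 without PHZ BM replicate 3 and -0.17 without PHZ SP replicate 2, and it turned to 0.69 without PHZ BM replicate 2 and 0.14 without PHZ SP replicate 1. For PHZ SP against control BM, the primary median was 0.69 without control replicate 2 and the later median 0.50 without control replicate 3.

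The balance of the sets within a library showed the same arrangement. The ratio of the summed primary to the summed later FPKM was 0.195, 0.248 and 0.400 in control, 0.632, 0.739 and 0.716 in PHZ BM and 0.245 and 0.255 in PHZ SP libraries. All 3 PHZ BM libraries lay above the other 5, and the spleen libraries lay within the control range. The primary sum averaged 99.5 ± 13.2, 201 ± 23.2 and 134 ± 16.3 FPKM, and the later sum 375 ± 90.3, 288 ± 14.9 and 534 ± 50.5 FPKM, in control BM, PHZ BM and PHZ SP HSCs (SD, n = 3, 3 and 2). The ratio rested on the most abundant gene of each set. Without Prtn3 and Lyz2 it was 0.00377 to 0.0867 in control, 0.0302 to 0.978 in PHZ BM and 0.0427 to 0.0583 in PHZ SP libraries, and the groups overlapped.

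**Figure D3:**
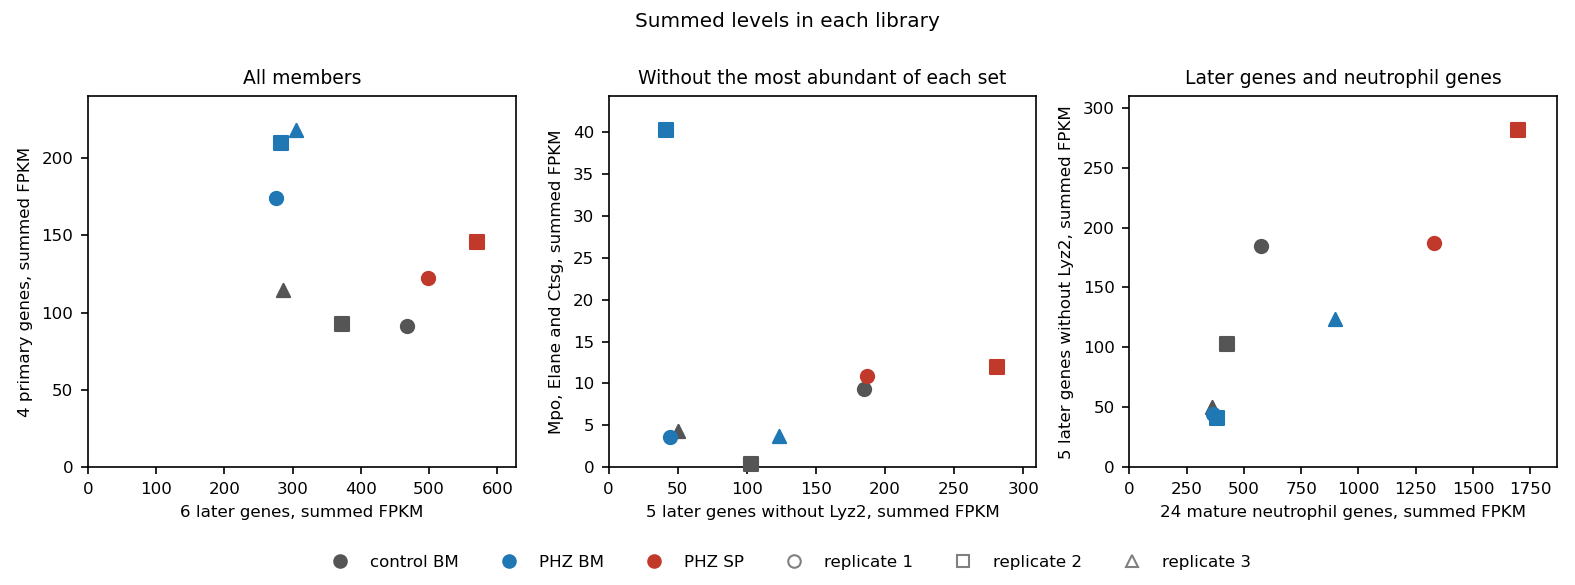
Summed FPKM per library on linear axes from 0, with colour for the group and symbol for the replicate number: the 4 primary against the 6 later genes (left), the same without Prtn3 and Lyz2 (middle), and the later genes without Lyz2 against 24 mature neutrophil genes (right). The PHZ BM libraries form the upper left of the left panel, at 174 to 218 FPKM of primary genes, while in the middle panel PHZ BM replicate 2 alone stands high, at 40.3 FPKM.

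Within groups the later genes tended to be high in the same library. Control replicate 1 was the highest control library for 5 of 6 later genes, PHZ BM replicate 3 the highest PHZ BM library for 5 of 6, and PHZ SP replicate 2 the highest spleen library for 4 of 6. Without Lyz2, the later sum was 185, 103 and 50.01 FPKM in control, 44.1, 41.2 and 123 FPKM in PHZ BM and 187 and 281 FPKM in PHZ SP libraries. The summed level of 24 other mature neutrophil genes, in the same order, was 574, 428 and 361, then 367, 382 and 899, then 1331 and 1697 FPKM. Control replicate 1 and PHZ BM replicate 3 were the highest of their groups in both sums. S100a8 and S100a9 made up most of the neutrophil sum in every library, at 264 and 223 FPKM in control replicate 1. Without these 2 genes control replicate 1 was no longer the highest control library, while PHZ BM replicate 3 remained the highest of its group. The part of mature neutrophils in these values was not tested. In bulk libraries such as these, more cells of a type and more RNA per cell cannot be told apart.

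The mature neutrophil list itself was highest in PHZ SP HSCs. Of its 24 genes 21 were tested, and limma called 5 of them in PHZ SP against control BM HSCs, where 0.758% of all genes were called. Of the 5, 3 would have passed the filter on marrow libraries alone, S100a8 (1.72, adjusted p = 0.0422), Retnlg (2.61, 0.0472) and Mmp9 (1.59, 0.0472), each with its log2 difference. The other 2, Mcemp1 (2.02, 0.0409) and Lrg1 (2.84, 0.0124), could be tested only because they were high in spleen, and their calls lend the list no support. Mcemp1 was at 3.36 and 3.23 FPKM in spleen and reached 1 FPKM in 1 marrow library (1.97, PHZ BM replicate 3), and Lrg1 was at 12.1 and 3.97 FPKM in spleen and did not exceed 0.386 FPKM in marrow. S100a8, a subunit of calprotectin, averaged 210 ± 50.02 FPKM in control BM (SD, n = 3) and 689 ± 142 FPKM in PHZ SP HSCs (SD, n = 2). Against PHZ BM HSCs, S100a8 (1.77, adjusted p = 0.0282) rose and Lrg1, with the same limit, differed by 2.82 (0.0113), where 0.978% of all genes were called. PHZ BM against control BM gave 0 of 21 called, against 2.74% of all genes. There 4 had an unadjusted p under 0.05, against 16.6% of all genes. In each spleen comparison 13 of 21 did, against 15.8% (from control BM) and 13.5% (from PHZ BM) of all genes. The 21 include the genes that needed the spleen libraries to pass the filter. Over all 24 genes, with no filter, the median differences were 1.05, 0.90 and 0.19 in PHZ SP against control BM, PHZ SP against PHZ BM and PHZ BM against control BM. Over the 21 tested they were 1.29, 1.21 and 0.27, where Fpr1 and Stfa2l1 also needed the spleen libraries to pass the filter. Ly6g, a neutrophil surface protein that anti-Gr-1 recognises, averaged 0.413 FPKM in control BM, 1.67 in PHZ BM and 5.62 in PHZ SP HSCs, and was not called (adjusted p = 0.0553 against control). Of the 8 fits without 1 library, S100a8 kept its call against control in 3, Retnlg in 2, and Mmp9 and Mcemp1 in 1. These 4 lost it without either spleen library, which leaves 1 in that group, and without each control library. Retnlg, Mmp9 and Mcemp1 also lost it without PHZ BM replicate 2, and Mmp9 and Mcemp1 without PHZ BM replicate 1. Lrg1 kept its call in the 6 fits that held both spleen libraries and did not pass the filter in the others. Against PHZ BM HSCs, S100a8 lost its call without either spleen library (0.156 and 0.171) or without PHZ BM replicate 1 or 2 (0.104 and 0.102), and Lrg1 without PHZ BM replicate 1 or 2 (0.0634 and 0.0533). Of the other 10 alternatives, which change the processing, the call against control held in 8 for Lrg1, 5 for S100a8, 4 each for Retnlg and Mcemp1 and 3 for Mmp9, and the call against PHZ BM HSCs in 7 for Lrg1 and 5 for S100a8. None of these 7 calls held with a pseudocount of 0.1 FPKM (adjusted p of 0.0501 to 0.0817).

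Genes that serve the promyelocyte stage were followed in a list of 15, of which 13 were tested. In PHZ BM against control BM HSCs, 2 of 13 rose, Gstm1 (0.91, limma adjusted p = 0.0224), a glutathione transferase, and Cd63 (0.64, 0.0478), a membrane protein of the primary granules. Of all genes 2.74% were called there. Cd63 averaged 144 ± 25.8 FPKM in control, 223 ± 29.2 in PHZ BM and 133 ± 4.54 in PHZ SP HSCs (SD, n = 3, 3 and 2). It kept its call without control replicate 2 only, among the 8 fits without 1 library (adjusted p of 0.0735 to 0.149 in the others), and in 2 of the 10 alternatives that change the processing. Gstm1 lost its call without control replicate 1 or 3 or PHZ BM replicate 1 or 2 (0.0668 to 0.117), and with no filter (0.0654), without the trend and robust options (0.102) and with PHZ BM replicates 1 and 2 as 1 sample (0.113). Not called were Serpinb1a, an inhibitor of the granule serine proteases (0.95, adjusted p = 0.0657), and Calr, a chaperone used in the folding of myeloperoxidase (0.67, 0.0628). Each was called in 2 of 18 alternatives, among them Serpinb1a without control replicate 3 (1.26, 0.0122) and Calr with voom (0.68, 0.0391). Ctsc, the protease that activates the granule serine proteases, differed by -0.62 (0.263), and Srgn, the proteoglycan that holds them in granules, by -0.17 (0.552). The list median was 0.67 in PHZ BM against control BM, 0.47 in PHZ SP against control BM and -0.02 in PHZ SP against PHZ BM.

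Among 12 myeloid transcription factors, 8 were tested. Spi1, which encodes PU.1, rose from 28.1 ± 3.64 FPKM in control BM to 47.8 ± 4.24 FPKM in PHZ BM HSCs (SD, n = 3 each; log2 difference 0.75, limma adjusted p = 0.0268), and its call was lost without control replicate 1 or 2 or any 1 of the PHZ BM libraries (0.0557 to 0.113), without the trend and robust options (0.101) and with PHZ BM replicates 1 and 2 as 1 sample (0.09999). In PHZ SP HSCs it averaged 45.4 ± 3.14 FPKM (SD, n = 2), which differed from control by 0.68 (adjusted p = 0.0977). Cebpa and Cebpe, which drive granule gene expression in granulocyte progenitors, did not pass the filter, with means between 0 and 0.588 FPKM in the 3 groups. Of 8 myeloid cytokine receptors 7 were tested and none was called by limma in any comparison. In PHZ SP against control BM, PHZ SP against PHZ BM and PHZ BM against control BM, 1, 2 and 1 had an unadjusted p under 0.05. Of all genes 15.8%, 13.5% and 16.6% did. Csf3r, the receptor for G-CSF, averaged 9.15, 12.2 and 6.46 FPKM in control BM, PHZ BM and PHZ SP HSCs.

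Of 22 monocyte and macrophage genes, 12 were tested and none was called by limma in any comparison. In PHZ SP against control BM, PHZ SP against PHZ BM and PHZ BM against control BM, 4, 2 and 1 had an unadjusted p under 0.05. Of all genes 15.8%, 13.5% and 16.6% did. The macrophage marker Adgre1 stayed at or below 0.288 FPKM in every library. Cd68, a lysosomal protein of macrophages and other phagocytes, was at 0, 4.59 and 8.51 FPKM in control, 4.95, 9.77 and 16.8 FPKM in PHZ BM and 34.6 and 57.9 FPKM in PHZ SP libraries. Both spleen libraries exceeded all marrow libraries in Cd68, and its difference from control was 3.60 ± 0.76 (log2, SE; limma adjusted p = 0.0582). That difference was called without control replicate 1 (2.65, adjusted p = 0.0438) and without control replicate 3 (4.27, 0.0388). The summed level of the list was 26.03 to 41.4 FPKM in control, 24.1 to 98.6 FPKM in PHZ BM and 64.7 to 92.4 FPKM in PHZ SP libraries. Without Cd68 it was 21.4 to 32.9, 19.1 to 81.8 and 30.1 to 34.5 FPKM. Among T and NK cell genes the 1 tested, Klrb1c, was called in both spleen comparisons, and of 3 B cell genes and 2 eosinophil, basophil and mast cell genes tested none was called. The list of T and NK cell genes summed to 1.06 to 2.67, 3.99 to 4.87 and 17.1 to 26.6 FPKM in control, PHZ BM and PHZ SP libraries. Klrb1c alone made up most of the sums in the PHZ SP libraries, at 14.8 and 18.5 FPKM. Of the 10 genes on that list, 5 stayed under 1 FPKM in every library. Erythroid genes were called higher in PHZ SP HSCs for 7 of 10 tested against control BM and 3 of 10 against PHZ BM. Of all genes 0.758% and 0.978% were called in these comparisons. Of the 7 erythroid genes, Ermap passed the filter only through the spleen libraries (2.52 and 3.896 FPKM, at most 0.923 FPKM in marrow). Immediate early genes were called higher in PHZ BM than control BM HSCs for 8 of 10 tested, where 2.74% of all genes were called. Of the 8, Fosb passed the filter only with the PHZ BM libraries. The part of these lists in the granule gene levels was not tested.

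**Figure D4:**
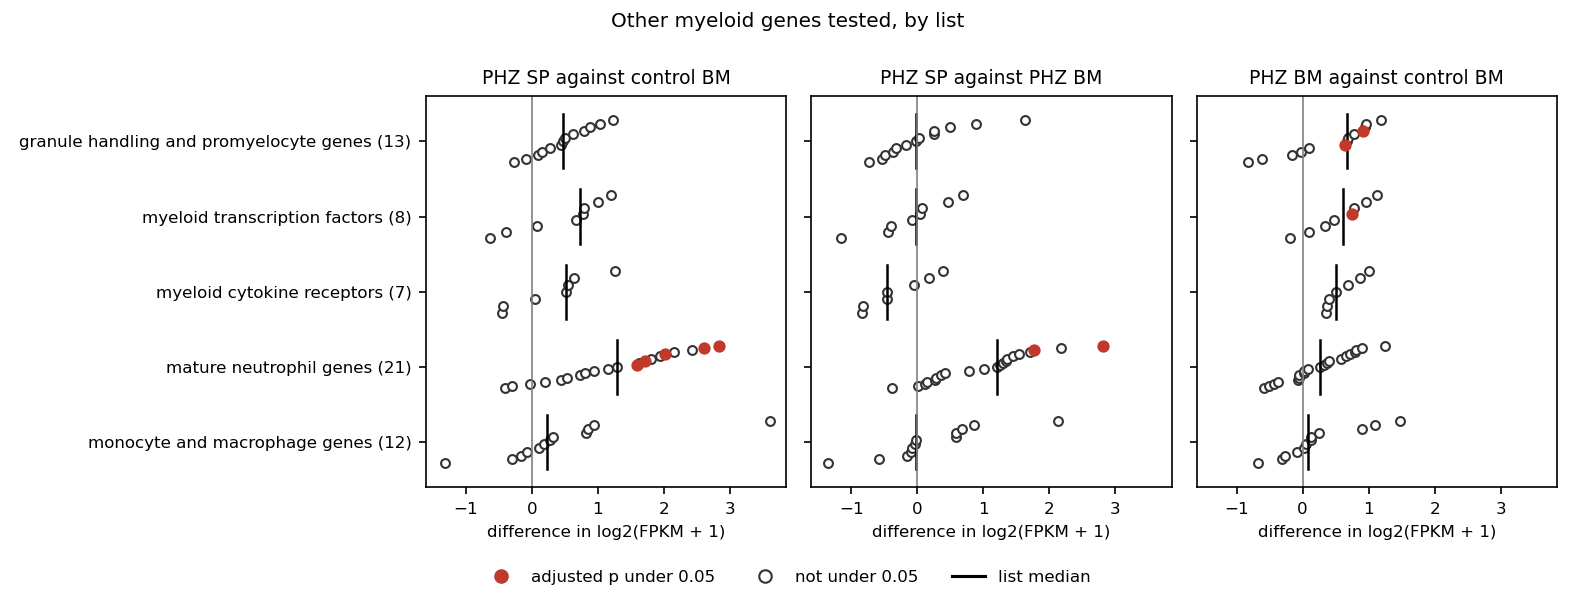
Difference in log2(FPKM + 1) between groups (horizontal axes) for every tested gene of 5 myeloid lists (number tested in brackets); filled points have a limma adjusted p under 0.05 and vertical bars are list medians. Mature neutrophil genes lie mostly right of 0 in both spleen comparisons, with medians of 1.29 and 1.21 over the 21 tested (1.05 and 0.90 over all 24), and promyelocyte genes in PHZ BM against control BM, with a median of 0.67.

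The genes whose pattern over the 8 libraries was most like the mean of the primary or of the later granule genes were named by Pearson's r on log2(FPKM + 1). For the primary mean these were Plekho2 (r = 0.926), Rap1gap (0.906), Gm16897 (0.905), Rprd1a (0.897) and 4930539J05Rik (0.895). For the later mean they were Pkig (r = 0.977), Tcea1 (0.967), Pik3r1 (0.967), Snx3 (0.944) and Scfd1 (0.940). None of them is a granule gene. The 8 libraries come from 3 groups and share a library protocol, and these are the highest of 11351 values of r, given as a description.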

How the data were processed

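RNA of sorted HSCs was turned into cDNA by SMART-Seq2 and tagged with a Nextera XT kit. Per the submitters' processing notes, STAR, DESeq2 and build mm10 were used; the gene counter is not given in the sources used here. The authors deposited FPKM values as 3 tables, 1 for each group, with Entrez IDs. Marrow columns are named WBM, and titles and cell type labels say HSC. The authors also deposited their own DESeq2 comparisons (fold changes and p-values), which were not used.

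All 110442 values above 0 gave whole reads (tolerance 1e-06) when worked back from FPKM, with 1 whole gene length each; genes of few reads fix both only up to a factor. For all 10 members that length equalled the exon length in GENCODE M21. The tables had been scaled separately, so FPKM were rescaled with median-of-ratios factors over all 8 libraries, a shift of at most 1.13%.

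limma 3.58.1 (R 4.3.3; trend and robust) was run on log2(FPKM + 1), two-sided, with all 8 libraries in 1 fit, group as the factor and Benjamini-Hochberg adjustment over 11351 genes. The limma step was tested on simulated data. The members, lists and motifs were chosen with earlier results of these data known. Named genes were the members, list genes called or nearest to the threshold, defining markers, and the 5 genes most like each set's mean. Coordinates and promoters came from RefSeq GRCm38.p6. Alternatives covered scaling, filter, pseudocount, voom on the reads, the variance options and each library left out. Python 3.11.15 was used for the rest.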

Additional observations from a re-analysis of the deposited data

How the results depend on the processing

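Of the members' calls, Prtn3 in PHZ BM against control BM held in 17 of 18 alternatives, at 0.85 to 1.07 (log2). All alternatives were planned. The number of members called became 0 in that comparison without the trend and robust options, and ranged from 1 to 2 with a library left out. In PHZ SP against PHZ BM it became 2 with only the 2 groups in the fit, and ranged from 0 to 2 with a library left out.

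Counts over all genes moved more. In PHZ SP against control BM, 86 became 39 with a pseudocount of 0.1 FPKM, 46 with no filter, 43 with only the 2 groups, 55 with quantile normalization and 34 with PHZ BM replicates 1 and 2 as 1 sample. In PHZ SP against PHZ BM, 111 became 62 with no filter, 65 with voom, 62 without the trend and robust options and 25 with PHZ BM replicates 1 and 2 as 1. In PHZ BM against control BM, 311 became 205, 204 and 116 with no filter, without those options and with the replicates as 1. With a library left out the 3 counts ranged from 14 to 83, 6 to 146 and 115 to 306. Leaving out a spleen library leaves 1, assumed to vary like the other groups. The cause of these shifts was not tested.

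Some members' differences turned sign. Lcn2 in PHZ BM against control BM was 0.0417 with the replicates as 1, and Lyz2 in PHZ SP against control BM was -0.00818 with quantile normalization. With a library left out, the ranges were -0.18 to 1.49 for Mpo in PHZ SP against PHZ BM, -0.00273 to 1.67 for Mpo in PHZ BM against control BM, -0.0462 to 1.32 for Elane in PHZ SP against PHZ BM, -0.15 to 1.46 for Elane in PHZ BM against control BM, -1.43 to 0.0506 for Ctsg in PHZ SP against PHZ BM, -1.06 to 0.066 for Ngp in PHZ BM against control BM, -0.73 to 0.15 for Lcn2 in PHZ BM against control BM and -0.0453 to 1.397 for Chil3 in PHZ SP against control BM. The median of the primary genes in PHZ SP against control BM, 1.08, became 2.49 with a pseudocount of 0.1 FPKM and 2.95 with voom.

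Deviations of same-numbered libraries correlated at -0.01 to 0.06, which cannot show whether samples were paired. The labels do not say which animals gave each library, so pairing is not known. With the replicate block, 73, 112 and 293 genes were called, and no member's call changed. Calls that ended under it were those of S100a8 in PHZ SP against control BM (adjusted p = 0.0758) and against PHZ BM (0.0605), Mmp9 in the former (0.0666) and Cd63 in PHZ BM against control BM (0.0646). Calr (0.0477) and Serpinb1a (0.0474) in PHZ BM against control BM and Cd68 in PHZ SP against control BM (0.00355) were called. Depth limits Mpo, Elane and Ctsg, of which single libraries held 0 to 20 reads.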
